A study of Drosophila melanogaster with 6 samples.

Results

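The genes described here encode the receptor, the transcription factor and the negative regulators of the Drosophila JAK/STAT pathway, together with ken and chinmo, a pair of BTB zinc finger genes tied to it. They were taken by gene symbol from the array annotation, as probe sets listed with exactly 1 symbol among dome, et, hop, Stat92E, Socs36E, Socs44A, Socs16D, Ptp61F, ken and chinmo. Of these 10 genes, 8 were measured, by 12 of the 18769 probe sets tested, which cover 11982 named genes in all. No probe set carried the symbol hop, which names the pathway's kinase, or Socs36E, alone or beside another gene, and both were not analysed here. Of the measured genes, chinmo had 3 probe sets, Socs16D and Ptp61F had 2 each, and the other 5 genes had 1.

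RNA was measured in S2 cells, an embryo-derived Drosophila line with macrophage-like, phagocytic behaviour, on 6 Affymetrix expression arrays. In 3 cultures the cells were incubated for 1 h at 25 °C with fragments of apoptotic S2 cells, 25 per cell, and 3 cultures received medium alone for the same time. Both groups were kept in medium with 1% heat-inactivated serum during the incubation, after maintenance in 10%, and were detached with trypsin and EDTA. The fragments were the pelleted particles of S2 cells killed with the protein synthesis inhibitor cycloheximide, so RNA or cycloheximide carried over with them was absent from medium alone, and its effect cannot be told apart from a response of the cells. The labels call the arrays biological replicates, all of 1 cell line and without saying whether cultures were grown or harvested separately. The p-values measure the spread between these arrays only.

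In Drosophila, JAK/STAT signalling starts when a secreted ligand of the Unpaired family binds the cytokine receptor Domeless. The receptor-bound kinase Hopscotch then phosphorylates the transcription factor Stat92E, which enters the nucleus and switches on target genes, among them feedback inhibitors. The pathway is known in blood cells for its part in hemocyte proliferation and in the response to wounding and infection. Ken acts as a repressor that binds some Stat92E target genes and keeps them low, and chinmo is a target gene needed downstream of Stat92E in several tissues.

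The values were deposited on a log2 scale. They lay between 5.351 and 14.10, and 61.42% of the tested probe sets, called flat here, moved by under 0.01 log2 units over the 6 arrays. The other 7241 are called varying. Of the 12 member probe sets 2 were flat, for Socs16D (6.29 on each of the 6 arrays) and for chinmo (6.25), and each of these genes had at least 1 varying probe set as well. Every difference below is fragments minus medium alone in log2 units. It was tested with limma over all tested probe sets and over the varying ones alone, with Benjamini-Hochberg adjustment and a threshold of 0.05.

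Medium-alone replicate 3 stood apart from the other arrays. Over the varying probe sets it correlated with medium-alone replicates 1 and 2 at r = 0.979 and 0.981, against 0.999 between those 2, and 0.995 to 0.998 among the fragment arrays. The median varying probe set read about the same there (-0.0057 log2 units from the mean of replicates 1 and 2), and so did et (0.029) and Socs44A (-0.021), while most of the other member probe sets read low. Of the 10 varying member probe sets, 9 had their lowest medium-alone value on that array and 8 their lowest value of all 6 arrays, with a median deviation of -0.36. Among all varying probe sets the same held for 45.8% and 33.6%. The low reading was not particular to these genes: the hemocyte markers Hml (-0.92), srp (-0.79) and vkg (-0.63) and the neuronal marker elav (-0.66) were low there too. Not every marker was low: zpg (0.65) and crq (0.15) read higher there, and He (0.032) and Pxn 1640097_at (-0.0067) about the same. The differences of the varying member and pathway probe sets are therefore given with and without that array. RNA integrity was read from 6 pairs of control probe sets, as the 3′ value minus the 5′ value. On that array the pairs for GAPDH (1.33), ACTIN (1.67) and eIF-4a (1.81) lay within the range of the other 5 arrays. Those for 18S rRNA (2.00, against 1.05 to 1.91) and r2 Act5C (2.56, against 1.90 to 2.42) were the highest of the 6 arrays, and that for r2 GAPDH (1.96, against 2.05 to 2.27) was the lowest. Their part in the results was not tested.

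The S2 cell and hemocyte identity was checked on 10 marker genes, of which 6 read above 8 in medium alone, where the median of the flat probe sets was 6.23. They were the GATA factor gene srp (10.68), the collagen IV genes Col4a1 and vkg (11.20 and 11.13), the scavenger receptor gene crq (10.10), Hml (9.30) and Ppn (8.39). He (5.98) and NimC1 (flat at 6.09) read under that median, as did the flat probe set of Pxn. Between that median and 8 lay eater (6.97) and the varying Pxn probe set, 1640097_at (6.88). Of 20 marker genes of lamellocytes, crystal cells, fat body, muscle, neurons and germ line, measured by 24 probe sets, 16 probe sets were flat. In medium alone zpg of the germ line (9.22), elav of neurons (8.14) and mthl4 of lamellocytes (1641282_at 8.002, 1627967_a_at 8.04) also read above 8. A level above 8 was therefore not limited to the hemocyte markers. The sum of the log2 values of all 24 probe sets was 159.3 to 160.2 on the medium-alone arrays and 159.4 to 160.1 on the fragment arrays. The 16 flat ones add the same amount on every array and opposite changes cancel, so the sum cannot show that single genes stayed level. In the fit on varying probe sets, 3 of the 8 varying ones of other cell types passed, against 6.85% of all varying probe sets. The lamellocyte probe set mthl4 1641282_at (difference 0.45) and the germ line gene bam (0.91) were higher and the germ line gene zpg (-1.97) lower with fragments. The medium-alone values of mthl4 1641282_at lay between 8.0018 and 8.0026 (SD 0.00039), a spread as small as that of flat probe sets. The other mthl4 probe set, 1627967_a_at, did not pass (0.17, limma adjusted p = 0.109). Among the 9 varying hemocyte probe sets crq passed (-0.80). Ppn was lower without overlap but missed the threshold (-0.74, limma adjusted p = 0.0588). Also without overlap and not passing were eater (-0.11) and the germ line gene vas (-0.075), both lower with fragments. The crystal cell gene peb (0.38) and mthl4 1627967_a_at were higher without overlap and did not pass. Groups did not overlap in 32% of all varying probe sets. Without medium-alone replicate 3, where 12.1% of all varying probe sets passed, the 4 that had passed did so again. Their differences were 0.45 for mthl4 1641282_at, 0.80 for bam, -1.75 for zpg and -0.75 for crq. Ppn passed as well (-0.91, limma adjusted p = 0.00268), and mthl4 1627967_a_at again did not (0.14, adjusted p = 0.146). Their part in the results below was not tested.

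Of the 8 measured genes, ken showed the largest difference between the groups. The ken probe set (1628840_at) read 9.16, 9.21 and 8.63 in medium alone and 10.03, 10.08 and 9.94 with fragments. The lowest fragment array lay 0.73 log2 units above the highest medium-alone array, and the fragment arrays were close together while replicate 3 of medium alone fell away from its group. Group means were 8.998 ± 0.32 (SD, n = 3) and 10.02 ± 0.071 (n = 3), a 2.03-fold difference. With limma among the varying probe sets ken passed, at a difference of 1.02 with an SE of 0.167 (95% interval 0.60 to 1.44, adjusted p = 0.0309). Over all tested probe sets it did not (limma adjusted p = 0.211, unadjusted 0.00513). The arrays read RNA of whole cultures, so more cells expressing ken and more ken RNA per cell cannot be told apart, here and below.

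Leaving out the low control array made the difference in ken smaller and its error smaller still. Without medium-alone replicate 3 it was 0.83 with an SE of 0.053, or 1.78-fold (95% interval 0.70 to 0.97, limma adjusted p = 0.00241 in the fit on varying probe sets, 0.0961 over all). Taken with its sign, the difference was then above that of 99.7% of the varying probe sets, and with all arrays above that of 99.6%. Leaving out any other single array kept the difference between 0.99 and 1.12 and ended the call, with limma adjusted p between 0.0628 and 0.130 among the varying probe sets.

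**Figure D1:**
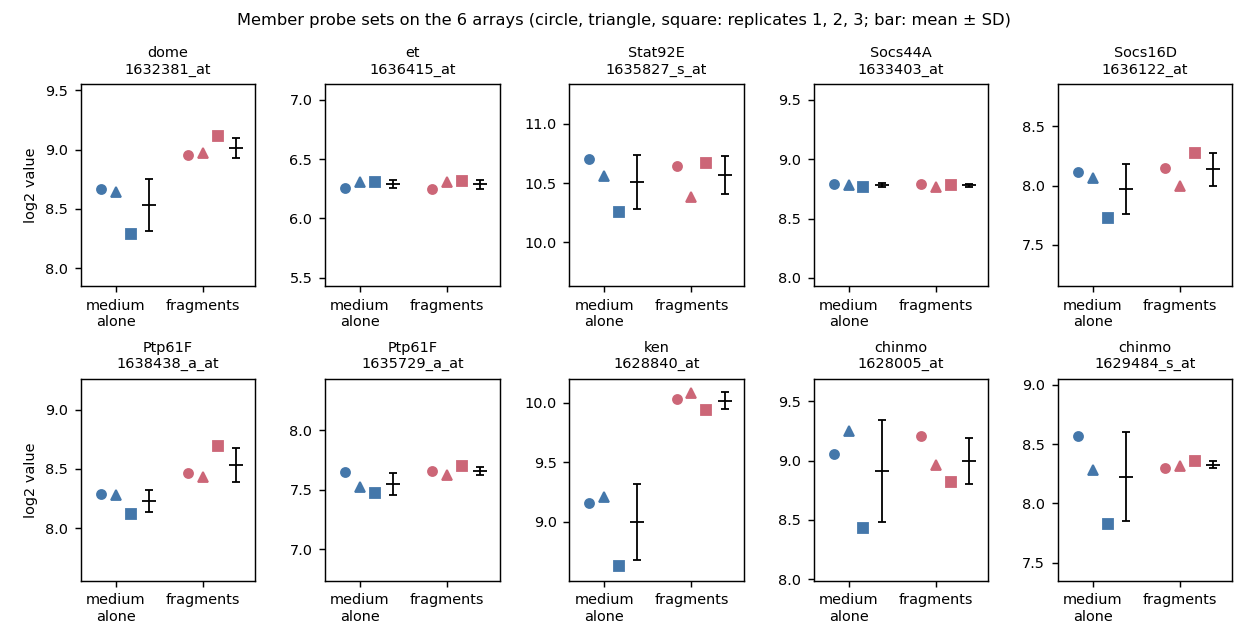
Log2 values (vertical axis) of the 10 varying member probe sets on the 6 arrays, medium alone in blue and fragments in red, with replicates 1, 2 and 3 as circle, triangle and square and the group mean ± SD (n = 3) as a black bar. All panels span the same number of log2 units. The groups are separate for ken, dome and Ptp61F 1638438_a_at, and the square of medium alone is the lowest of the 6 for 8 of the 10 probe sets.

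The receptor gene dome had the next largest difference. It read 8.67, 8.64 and 8.28 in medium alone and 8.95, 8.97 and 9.11 with fragments, again without overlap and with replicate 3 of medium alone lowest. The means were 8.53 ± 0.22 and 9.01 ± 0.087 (SD, n = 3 each), 1.39-fold apart. The difference of 0.48 (SE 0.118, 95% interval 0.18 to 0.78) missed the threshold in the varying set (limma adjusted p = 0.0804) and over all (0.344). Without medium-alone replicate 3 the difference was 0.36 (95% interval 0.20 to 0.51) and passed among the varying probe sets (limma adjusted p = 0.0267) but not over all (0.259). On the deposited scale the call for dome thus depends on leaving that array out.

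The gene et, also called latran, encodes a receptor related to Domeless that dampens signalling, and lies next to dome on the X chromosome in the gene table. Its probe set showed no such separation. It read 6.25, 6.31 and 6.31 in medium alone and 6.25, 6.31 and 6.31 with fragments, close to the 6.23 median of flat probe sets, so that a low level limits what it can show. The difference was -0.0020 (95% interval -0.092 to 0.088, limma adjusted p = 0.987 in the varying set). Without medium-alone replicate 3 it was 0.0075.

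Stat92E, the transcription factor of the pathway, read 10.70, 10.56 and 10.26 in medium alone and 10.64, 10.38 and 10.67 with fragments. The groups overlapped widely. Its difference was 0.058 (95% interval -0.30 to 0.41, limma adjusted p = 0.869 in the varying set) and turned to -0.067 without medium-alone replicate 3 (95% interval -0.34 to 0.21), so its direction is not settled. A change as large as that of ken lies outside both intervals. The suffix of this probe set (_s_at) marks probes that can match more than 1 transcript.

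The SOCS family encodes adaptor proteins known for limiting cytokine signalling, and neither measured member passed. Socs44A read 8.80, 8.78 and 8.77 in medium alone and 8.79, 8.77 and 8.78 with fragments, all 6 within 0.030 log2 units. Its difference of -0.0021 had a 95% interval of -0.070 to 0.066 (limma adjusted p = 0.980 in the varying set). It was -0.0093 without medium-alone replicate 3. The varying Socs16D probe set (1636122_at) read 8.12, 8.06 and 7.73 in medium alone and 8.15, 7.996 and 8.27 with fragments, with overlapping groups. There the difference was 0.17 (95% interval -0.15 to 0.49, adjusted p = 0.5), and only 0.051 without medium-alone replicate 3. Much of the gap between the Socs16D means therefore came from the single low control array.

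Ptp61F encodes a tyrosine phosphatase that acts on Hopscotch and Stat92E, and its 2 probe sets leaned the same way to different extents. Probe set 1638438_a_at read 8.29, 8.28 and 8.12 in medium alone and 8.47, 8.43 and 8.70 with fragments, without overlap. The difference of 0.30 (95% interval 0.077 to 0.53, 1.23-fold) missed the threshold in the varying set (limma adjusted p = 0.118), and again without medium-alone replicate 3 (difference 0.25, adjusted p = 0.160). In probe set 1635729_a_at, with 7.65, 7.53 and 7.47 in medium alone and 7.66, 7.63 and 7.70 with fragments, the groups overlapped by 0.023. Its difference was 0.11 (95% interval -0.028 to 0.25, limma adjusted p = 0.304), and 0.072 without medium-alone replicate 3.

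For chinmo, both varying probe sets showed wide scatter in medium alone and no difference past the threshold. Probe set 1628005_at read 9.06, 9.25 and 8.43 in medium alone and 9.20, 8.96 and 8.82 with fragments. Probe set 1629484_s_at read 8.57, 8.28 and 7.83 in medium alone and 8.30, 8.32 and 8.36 with fragments. In both, replicate 3 of medium alone was the lowest of the 6 arrays, by 0.72 and 0.60 below the mean of the other 2 controls. The differences of 0.083 and 0.099 (limma adjusted p = 0.892 and 0.824 among the varying probe sets) turned to -0.16 and -0.10 without that array (adjusted p = 0.539 and 0.592), with 95% intervals of -0.50 to 0.18 and -0.34 to 0.14.

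**Figure D2:**
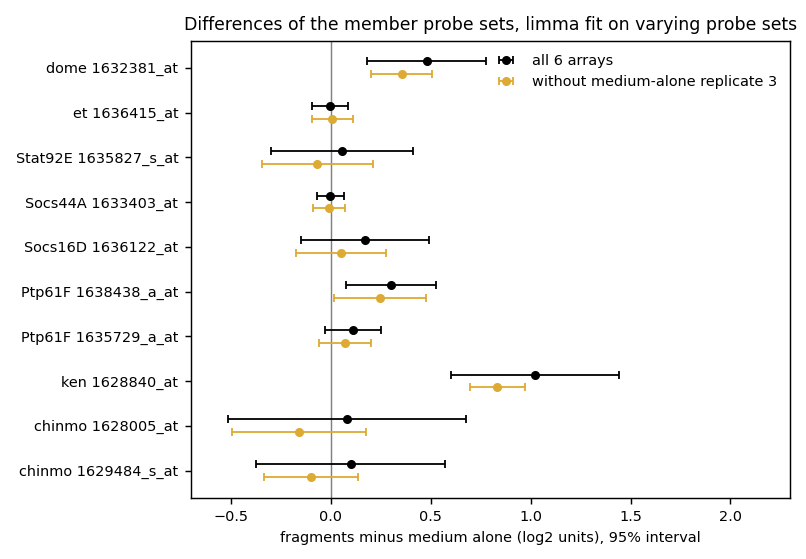
Difference between fragments and medium alone in log2 units (horizontal axis) for each varying member probe set, with 95% intervals from the limma fit on varying probe sets, with all 6 arrays (black) and without medium-alone replicate 3 (yellow). The intervals of ken, dome and Ptp61F 1638438_a_at lie above 0 in both fits, and the points of Stat92E and of both chinmo probe sets cross from above to below 0.

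Over all tested probe sets 0 of the 12 member probe sets passed in limma, where 0.304% of all probe sets did (57 of 18769), and 3 members reached an unadjusted p under 0.05, as did 10.8% of all probe sets. Among the varying ones 1 of 10 passed, against a background of 6.85% in either direction and 2.29% higher with fragments. Without medium-alone replicate 3 these were 2 of 10 against 12.1% and 4.72%, and again 0 over all probe sets (2 at an unadjusted p under 0.05, against 11% of all), where 0.0426% passed. The groups did not overlap in 3 of the 10, all higher with fragments, where 14.7% of varying probe sets were wholly higher and 17.4% wholly lower. Groups that did not overlap, in either direction, made up 32% of the varying probe sets, so the 3 of 10 lies near the background. The median difference was 0.11 over the 10 and 0.029 without medium-alone replicate 3, against -0.0035 and -0.0062 over all varying probe sets. In means, 8 of the 10 were higher with fragments, and 6 of the 10 without that array, against 47.8% and 46.1% of all varying probe sets.

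Other genes of the pathway were examined through a list of 28 genes, of which 22 had a probe set of their own and 12 a varying one. Among the varying probe sets 0 of these 12 passed in limma, with or without medium-alone replicate 3, against a background of 6.85% and 12.1%. Over all tested probe sets 4 of the 23 probe sets of the list had an unadjusted p under 0.05, with or without that array, against 10.8% and 11% of all. The groups did not overlap in 5 of the 12 (41.7%), all higher with fragments. Of all varying probe sets 14.7% were wholly higher, and 32% did not overlap in either direction. Without medium-alone replicate 3 the count was again 5. It could not fall, since a probe set wholly above every control stays so with a control left out. Without that array 1390 of the 7241 varying probe sets (19.2%) were wholly higher and 1782 wholly lower. With all 6 arrays these counts were 1063 and 1257. Leaving that array out thus raised the background in both directions, and the 5 of 12 is not read as a result about the list. In means 11 of the 12 were higher, with or without medium-alone replicate 3, against 47.8% and 46.1% of all varying probe sets. The median difference was 0.30, and 0.091 without that array. That array was the lowest of the 6 for 9 of the 12 probe sets. This list and the members were chosen with earlier results of these data known, so the counts of both are a description only.

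Of the Unpaired ligand genes, upd2 read 6.95, 6.85 and 6.27 in medium alone and 7.14, 7.13 and 6.95 with fragments. The difference of 0.39 did not pass (limma adjusted p = 0.310 in the varying set) and shrank to 0.17 without medium-alone replicate 3. The ligand gene upd1 stayed within 6.16 to 6.18 on the 6 arrays, under the 6.23 at which flat probe sets centre, with a difference of -0.0050, and -0.0029 without that array. The ligand gene upd3 was not analysed here.

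Among Stat92E target genes, vir-1, a gene known for its induction by viral infection, differed the most. It read 11.25, 11.24 and 10.93 in medium alone and 12.03, 12.19 and 11.62 with fragments, without overlap. The difference of 0.81 (95% interval 0.37 to 1.24, 1.75-fold) missed the threshold in the varying set (limma adjusted p = 0.0577) and without medium-alone replicate 3 (0.70, adjusted p = 0.0688). Cdk4, which encodes the kinase partner of Cyclin D, read 8.64, 8.70 and 8.41 against 9.10, 9.06 and 8.87 and also missed it (difference 0.43, adjusted p = 0.0751, and 0.34 with adjusted p = 0.0630 without that array).

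Another gene without overlap was zfh1, a zinc finger factor gene that responds to Stat92E in the testis. It read 11.41, 11.46 and 11.04 in medium alone and 11.77, 11.66 and 11.98 with fragments. The difference of 0.50 did not pass (limma adjusted p = 0.108), nor did the 0.37 without medium-alone replicate 3 (adjusted p = 0.0830). The target gene wdp, whose product Windpipe promotes breakdown of Domeless, read 9.99, 10.06 and 9.33 in medium alone and 10.16, 9.98 and 9.99 with fragments, and its difference of 0.25 shrank to 0.023 without that array.

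Genes whose products handle the receptor or work with Stat92E and Ken on chromatin did not differ past the threshold. Neither did Cnot4 and Ipk2, which are on the list for other roles. Stam and Hrs, which sort receptors at the endosome, had differences of 0.40 and 0.27, which were 0.029 and 0.084 without medium-alone replicate 3. Stam had the widest control scatter of the list, at 9.73, 9.81 and 8.67 in medium alone. E(bx), the large subunit of the chromatin remodeller NURF that works with Ken, and BRWD3, needed for full pathway activity, differed by 0.21 and 0.19 with limma adjusted p of 0.366 and 0.339 among the varying probe sets. Cnot4, reported as a positive regulator, read 8.96, 8.80 and 8.95 against 8.96, 9.37 and 9.37 (difference 0.33, adjusted p = 0.201), with 0.00326 log2 units between its groups. Ipk2 differed by 0.059 (adjusted p = 0.274). Without medium-alone replicate 3 the differences were 0.085 for E(bx), 0.097 for BRWD3, 0.36 for Cnot4 and 0.064 for Ipk2.

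The other 10 measured genes of the list had flat probe sets only, and a flat value can show no difference. Among them were the Turandot stress genes TotB, TotC and TotZ, Diedel, CycD, bab1, the transcription factor genes apt and slbo, and Su(var)2-10, which encodes the PIAS protein that inhibits Stat92E. Over the 10 genes, levels in medium alone ran from 5.69 to 11.08.

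**Figure D3:**
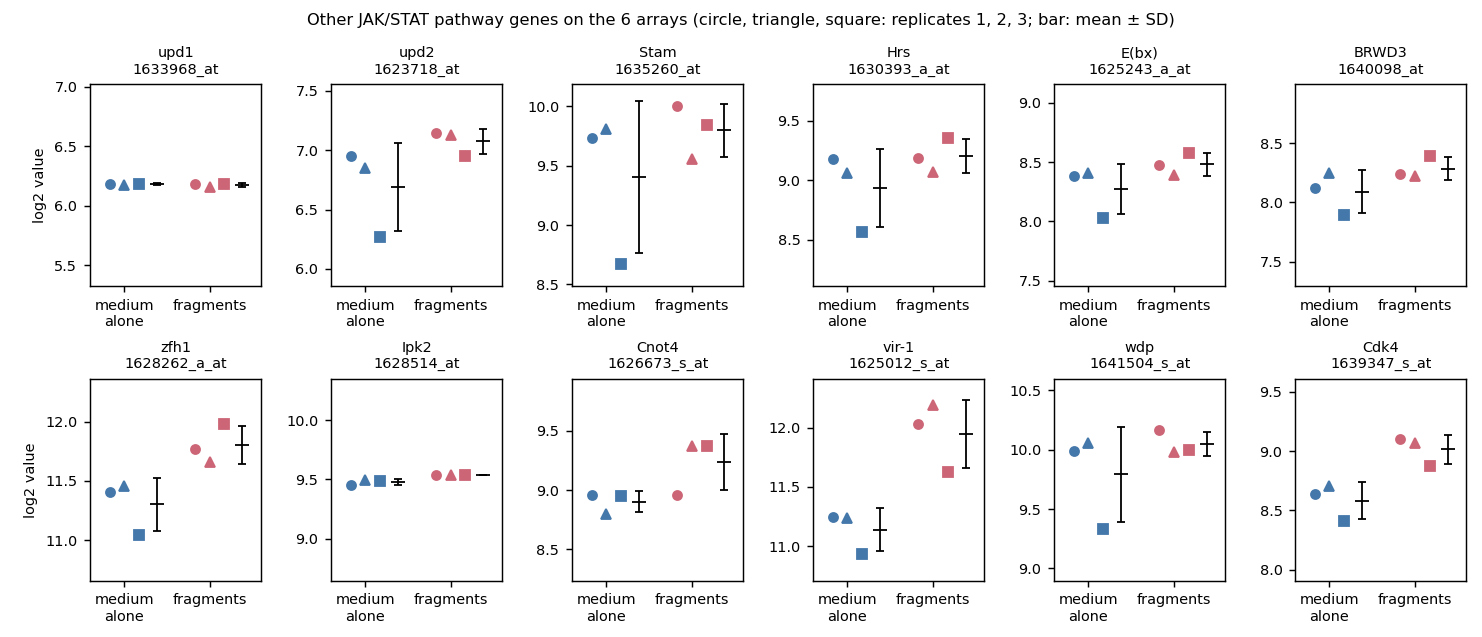
Log2 values (vertical axis) of the 12 varying probe sets of other JAK/STAT pathway genes on the 6 arrays, with the same colours, symbols and mean ± SD bars (n = 3) as for the member genes. The groups are separate for zfh1, Ipk2, Cnot4, vir-1 and Cdk4, and the square of medium alone is the lowest of the 6 for 9 of the 12.

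A low reading on medium-alone replicate 3 came with small and with large differences once it was left out. The probe sets that were lowest on that array, Stam (-1.10 from the mean of replicates 1 and 2), chinmo 1628005_at (-0.72) and wdp (-0.69), differed by 0.029, -0.16 and 0.023 once it was left out. In ken, with a deviation of -0.56, and vir-1, with -0.31, the fragment arrays stayed 0.83 and 0.70 above the other 2 controls.

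**Figure D4:**
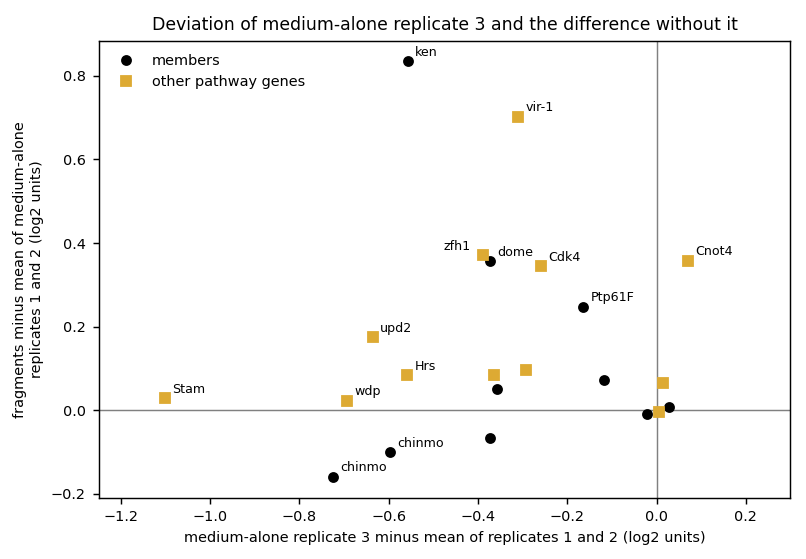
Each point is a varying probe set of a member (black circle) or of another pathway gene (yellow square), placed by the deviation of medium-alone replicate 3 from the mean of replicates 1 and 2 (horizontal axis, log2 units) and by the difference between the fragment arrays and those 2 replicates (vertical axis, log2 units). Most points lie left of 0, and ken (0.83) and vir-1 (0.70) stand highest.

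The genes most like ken across the 6 arrays were ste24b, CG8026, CG6700, Tbcb and daw, with Pearson r of 0.998 to 0.995 over the 6 arrays. They are the top 5 of 1969 single-gene probe sets with a range of at least 0.5 log2 units, of which 150 (7.62%) had an r of at least 0.95. The median r of these probe sets with ken was 0.31. The points share the 6 arrays, their split into groups and the low reading of ken on medium-alone replicate 3, so a gene with a high r has a difference between the groups by its selection. Within the members, dome reached r = 0.959 with ken, the Ptp61F probe sets 0.852 and 0.793, the varying Socs16D probe set 0.680, the chinmo probe sets 0.462 and 0.4999, Stat92E 0.386, Socs44A 0.091 and et -0.142.

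The size of the step differed among these 5 genes, and is given as a description with no test. CG8026 read 9.72, 9.67 and 8.97 in medium alone and 10.92, 10.85 and 10.67 with fragments, a difference of 1.36, and 1.12 without medium-alone replicate 3. The gene daw, which encodes the Activin-like ligand Dawdle, read 6.92, 6.79 and 6.18 in medium alone and 7.83, 7.97 and 7.85 with fragments (difference 1.25, and 1.03 without that array). Tbcb, a tubulin-binding cofactor gene, had the smallest step of the 5, 0.70, and 0.60 without that array. For ste24b, a CAAX protease family gene, and CG6700 the differences were 0.90 and 0.88, and 0.74 and 0.73 without it.

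**Figure D5:**
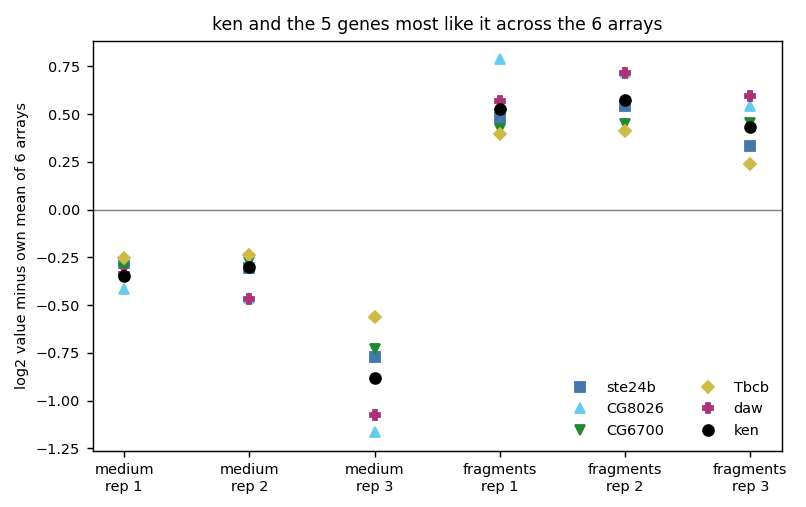
Log2 value minus the probe set's own mean of the 6 arrays (vertical axis) for ken (black circles) and the 5 genes most like it, by array (horizontal axis). All 6 genes are lowest on medium-alone replicate 3 and above their own mean on the 3 fragment arrays.

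Bacterial and phage spike transcripts, read by 18 control probe sets, offer another scale. They averaged 10.65 in medium alone and 10.38 with fragments, with array means that overlapped between the groups (10.47 to 10.79 and 10.27 to 10.48). Aligning the arrays on them adds the same 0.26 to every difference, so any value just under 0 changes sign by construction. On that scale the differences were 1.28 for ken, 0.74 for dome and 0.26 for both et and Socs44A.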

How the data were processed

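The authors deposited log2 values for the probe sets of 6 Affymetrix arrays. Per the labels, 150 ng of RNA was amplified to biotin-labelled cRNA by a 3′ IVT method, and the submitters' processing notes name R 2.7.2. How probes were summarised and arrays normalized is not stated in the sources used here. No offset, level filter or further normalization was applied, and 183 control probe sets were dropped. The platform annotation lists 1 symbol for 13647 of the 18769 tested probe sets and several for 402, and does not list 4720. The gene identifiers of 13544 were found in the RefSeq table (Release 6 plus ISO1 MT), with 0 changed symbols. Groups and replicate numbers came from sample titles.

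Fragments were compared with medium alone with limma 3.58.1 in R 4.3.3 (lmFit, eBayes without trend, two-sided, Benjamini-Hochberg), over all tested probe sets. The flat values drew the prior variance toward 0 (0.123 prior degrees of freedom), so the fit on the 7241 varying probe sets (1.36) is given beside it. The code was tested on simulated data. Same-numbered arrays deviated together at r = 0.44, 0.038 and 0.38, and different-numbered ones at r = -0.49 to 0.46. The numbers were not taken as pairs, since no label ties equal numbers to a shared culture or day. Members and lists were chosen with earlier results of these data known. Named were all members, the pathway list and the 5 genes most like the member of largest difference. Arrays give no read depth, and their number limits the precision. No sequences or coordinates are given.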

Additional observations from a re-analysis of the deposited data

How the results depend on the processing

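Of all tested probe sets 0.304% (57) were called with limma. The share was 0.682% (128) after quantile normalization, 0.735% (138) after centring on array medians, 2.18% (47 higher, 158 lower) with low probe sets left out, 0.125% (19) with ambiguous suffixes left out and 0 with the replicate number as a block (1868 at an unadjusted p under 0.05). It was 6.85% (496) with flat probe sets left out and 6.2% (449) there with the replicate block. On the spike scale it was 8.98% (1685), and 20.6% (1490) with flat probe sets left out, a setting added after the data were seen. Higher calls were 10 of 57 as deposited, 39 of 128 after quantile normalization, 33 of 138 after centring and 1492 of 1685 on the spike scale. With 1 array left out, 0 to 0.0426% passed over all probe sets. Among the varying ones 2.15%, 2.53% and 12.1% passed without medium-alone replicate 1, 2 or 3, and 1.93%, 1.78% and 4.39% without fragment replicate 1, 2 or 3.

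Of the member probe sets, 0 passed over all. Without flat probe sets 1 passed (ken), also with the replicate block there (limma adjusted p = 0.0407). On the spike scale 4 passed, with or without flat probe sets: ken, dome, Socs16D 1636122_at and Ptp61F 1638438_a_at. With 1 array left out 0 to 2 passed. In the replicate block fit on varying probe sets vir-1 (adjusted p = 0.0274) and Cdk4 (0.0324) also passed, although no label ties equal numbers to a shared culture or day. Without fragment replicate 3 vir-1 passed in the varying set (0.0364).

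Of the 606 values of the 27 named probe sets under alternatives, 521 kept their direction and side of the threshold, 58 moved past it (38 on the spike scale) and 27 changed sign. With 1 array left out, differences ran from -0.021 to 0.020 for et, -0.0093 to 0.0056 for Socs44A, -0.0096 to 0.0035 for upd1, -0.067 to 0.156 for Stat92E, -0.159 to 0.251 for chinmo 1628005_at and -0.10 to 0.27 for chinmo 1629484_s_at. In the varying set the same sign changes gave 0.0075 and 0.020 for et, 0.0043 and 0.0056 for Socs44A, 0.0035 for upd1, -0.067 for Stat92E, and -0.159, -0.022 and -0.10 for chinmo. The other sign changes were those of et (0.26), Socs44A (0.26) and upd1 (0.257) on the spike scale and of Socs44A after quantile normalization (0.0090). The cause was not tested. Flat probe sets carry the spikes' spread on the spike scale, so p-values there are not comparable.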
